A study of Mus musculus with 30 samples.

Results

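The microRNAs miR-128, miR-137, miR-138 and miR-218 were examined in small RNA libraries of mouse cortex, as the reads that matched their 7 precursor hairpins out of 2202 miRNA hairpins annotated in GENCODE. A read was counted for a hairpin when its whole sequence occurred in it without a mismatch and in the sense direction. The 7 hairpins carry 11 annotated mature arms, of which 9 had enough reads to be tested. Over all hairpins 4175 features had at least 1 read, 1281 of them annotated mature arms and the other 2894 the remaining stretches of hairpins, the 5p or 3p side of hairpins with no listed mature product, or reads shared by several of these. The features that passed a filter on low counts were tested together. All features are called arms in what follows, and ranks of level are over all of them, while percentages called are over those tested. RNA came from the prefrontal cortex of 6-month-old mice, WT or 5XFAD, sequenced with PANDORA-seq or with traditional-seq, and the 30 libraries fall into 8 WT and 8 5XFAD libraries of PANDORA-seq and 7 WT and 7 5XFAD libraries of traditional-seq. All mice were on the C57BL6/J background, the 5XFAD mice were hemizygous with WT littermates as controls, and both sexes were used, although the labels do not give the sex of a sample. 5XFAD mice model amyloid deposition with transgenes driven in neurons by the Thy1 promoter, and so rest on overexpression. In both protocols short RNA was cut from a gel, and PANDORA-seq alone added T4 PNK, which repairs RNA ends, and AlkB, which removes base methylations, before the library was built.

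A miRNA gene is transcribed as a long precursor whose hairpin is cut by Drosha and then Dicer into a duplex of a 5p and a 3p arm. An Argonaute protein keeps the guide arm, which finds target mRNAs through its seed at bases 2 to 8, while the opposite arm is mostly lost. miR-128 and miR-138 are abundant in neurons, where miR-128 restrains excitability and miR-138 limits the growth of dendritic spines. miR-137 acts in neuronal maturation and at synapses and lies in a locus tied to schizophrenia risk, and miR-218 is best known as a miRNA of motor neurons that is also present in forebrain neurons.

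The mature arms are shown first, because the seeds set the targets and the 3′ ends carry most of what follows. Sequences are from RefSeq (GRCm38.p6), 5′ to 3′, with the seed in capitals, and all 11 arms were matched by name. The guide arms have 4 different seeds.
miR-128-3p: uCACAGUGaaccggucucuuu
miR-137-3p: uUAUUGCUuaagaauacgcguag
miR-138-5p: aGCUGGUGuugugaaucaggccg
miR-218-5p: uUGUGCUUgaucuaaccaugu
The opposite arms differ between the hairpins that share a guide arm, except that both 5p arms of miR-128 have the seed GGGGCCG.
miR-128-1-5p: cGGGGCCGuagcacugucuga
miR-128-2-5p: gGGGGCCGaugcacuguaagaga
miR-137-5p: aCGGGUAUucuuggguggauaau
miR-138-1-3p: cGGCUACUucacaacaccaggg
miR-138-2-3p: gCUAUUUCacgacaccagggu
miR-218-1-3p: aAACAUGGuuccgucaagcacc
miR-218-2-3p: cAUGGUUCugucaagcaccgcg
Of the guide arms, miR-218-5p alone shared its seed with another mature miRNA of the table, miR-7002-3p, which had no read in any library.

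In GRCm38, Mir128-1 lies at chr1:128202361-128202430 (+) in an intron of R3hdm1 and Mir128-2 at chr9:112118636-112118711 (-) in an intron of Arpp21. Mir137 lies at chr3:118433857-118433929 (+) and overlaps an exon of the processed transcript Gm26871. Mir138-1, at chr9:122682876-122682974 (+), overlaps an exon of the pseudogene Gm47135, and Mir138-2, at chr8:94324311-94324381 (+), overlaps an exon of the lincRNA C78859. Mir218-1, at chr5:48223942-48224051 (+), and Mir218-2, at chr11:35616816-35616925 (+), lie in introns of Slit2 and Slit3. These positions come from the annotation, since the deposited files hold read sequences and no coordinates.

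Depth set what could be seen of each arm. PANDORA-seq libraries held 54926347 to 105876141 reads, of which 1.51% to 5.54% (829202 to 3634848 reads) matched a miRNA hairpin, and traditional-seq libraries held 9370669 to 17053412 reads, of which 35.9% to 50.3% (3879671 to 7090394 reads) did. Levels are therefore given as CPM, the reads of an arm per 1000000 hairpin reads of the library, where a read is a whole small RNA and needs no scaling by length. How well each arm enters a library is not known, so the order of arms holds for a protocol and is not an order of molecules in the tissue. 3 reads were worth 0.825 to 3.62 CPM in PANDORA-seq and 0.423 to 0.773 CPM in traditional-seq, which covers counting error only. The study counts the replicates of each group and protocol as separate mice, which the labels do not state. The library labelled 5XFAD replicate 1 of PANDORA-seq stood apart: its TMM scaling factor was 0.505, let-7c-5p made up 24.4% of its hairpin reads against 3.74% to 12.6% in the other PANDORA-seq libraries, and it had the lowest level of miR-128-3p, miR-128-1-5p, miR-128-2-5p, miR-137-3p, miR-137-5p, miR-138-5p and miR-218-5p of all PANDORA-seq libraries. WT replicate 1 (factor 0.653) and WT replicate 2 (factor 1.49) were the extremes of traditional-seq. In bulk tissue, fewer cells of a type and less RNA per cell cannot be told apart.

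miR-128-3p dominated the 4 families. Its median level ranked 1 of 4175 arms in traditional-seq and 2 in PANDORA-seq, and the 7 hairpins together gave 15.9% to 54.1% of hairpin reads in traditional-seq and 2.31% to 13.7% in PANDORA-seq. In traditional-seq its level ran from 142174 CPM through a median of 227191 to 526219 CPM in the 7 WT libraries, and from 174433 through 242319 to 322068 CPM in the 7 5XFAD libraries. The WT library at the top, replicate 1, gave miR-128-3p 52.6% of its hairpin reads. In PANDORA-seq the range was 67044 to 133725 CPM with a median of 91545 in WT and 22384 to 97187 CPM with a median of 63157 in 5XFAD. The protocols did not overlap, and the genotypes did.

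miR-218-5p came next among the guide arms, ranking 10 in traditional-seq and 58 in PANDORA-seq. Its level ran from 4951 through 14204 to 37518 CPM in WT and from 5000 through 13543 to 31744 CPM in 5XFAD by traditional-seq. By PANDORA-seq it ran from 881 through 2288 to 5401 CPM in WT and from 481 through 1623 to 2725 CPM in 5XFAD. 3 traditional-seq libraries, WT replicates 4 and 7 and 5XFAD replicate 2, stood at 31744 CPM or more, while the other libraries did not pass 15929 CPM.

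miR-138-5p, rarer again, was a guide arm whose levels overlapped widely between protocols. It ran from 125 through 177 to 708 CPM in WT and from 95.0 through 168 to 348 CPM in 5XFAD by traditional-seq, with WT replicate 2 far above the rest. By PANDORA-seq it ran from 126 through 247 to 369 CPM in WT and from 16.7 through 196 to 345 CPM in 5XFAD. miR-137-3p was the rarest guide arm. It ran from 22.3 through 28.5 to 96.1 CPM in WT and from 18.7 through 33.5 to 94.9 CPM in 5XFAD by traditional-seq, and from 3.91 through 10.1 to 18.1 CPM in WT and from 0 through 9.59 to 19.8 CPM in 5XFAD by PANDORA-seq. The 0 was 5XFAD replicate 1, where a count of 0 allows up to 0.893 CPM. Of the traditional-seq libraries, WT replicates 2, 4 and 7 and 5XFAD replicate 2 lay at 85.4 CPM or more, and 3 of these 4 were the ones highest in miR-218-5p.

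Among the opposite arms, those of miR-128 and miR-138 were low but present in every library. miR-128-2-5p ran from 17.8 through 52.1 to 135 CPM in WT traditional-seq and from 238 through 363 to 877 CPM in WT PANDORA-seq, and miR-128-1-5p from 17.6 through 35.6 to 80.4 CPM and from 59.3 through 98.6 to 182 CPM. miR-138-2-3p had medians of 10.4 CPM (WT traditional-seq) and 92.7 CPM (WT PANDORA-seq), and miR-138-1-3p of 3.25 and 16.9 CPM. miR-137-5p had medians of 11.98 and 62.6 CPM. Those of miR-218 were almost absent, with 0 to 4 reads of miR-218-1-3p and 0 to 12 reads of miR-218-2-3p in a library, too few for any test. By median in WT traditional-seq the order was miR-128-3p, miR-218-5p, miR-138-5p, miR-128-2-5p, miR-128-1-5p, miR-137-3p, miR-137-5p, miR-138-2-3p and miR-138-1-3p. The ranges of the first 3 did not overlap, and from miR-138-5p on the range of each arm overlapped that of the next.

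**Figure D1:**
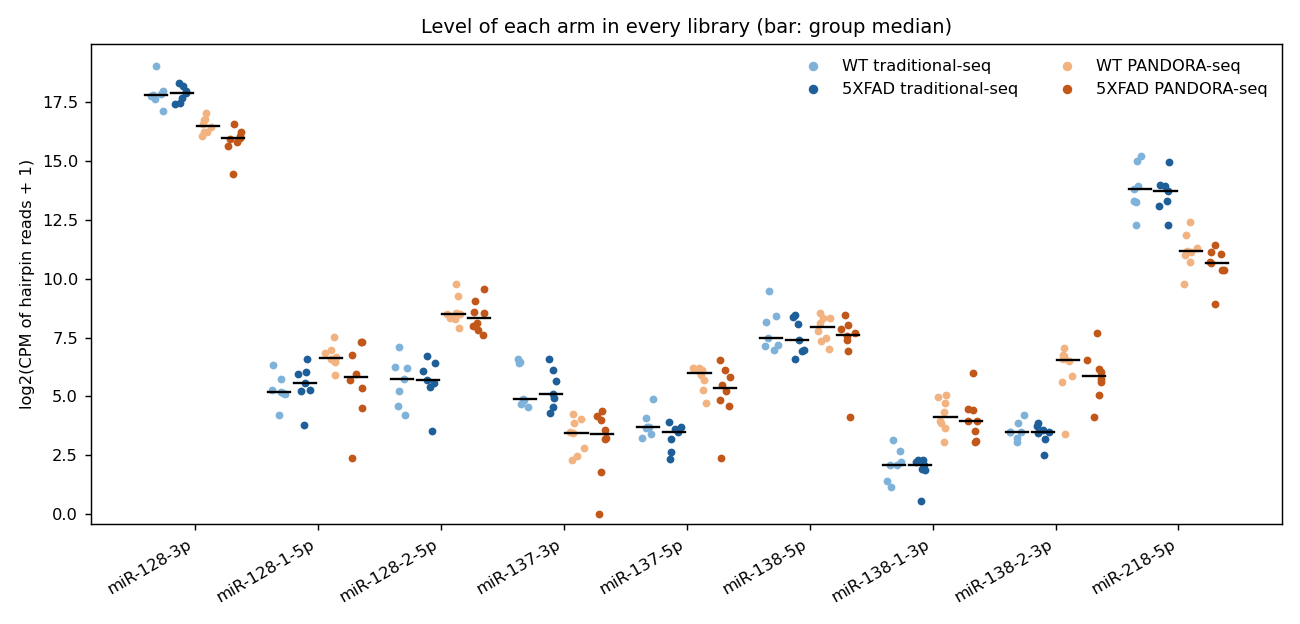
Level of each of the 9 tested arms in every library, as log2(CPM of hairpin reads + 1), coloured by genotype and protocol, with a bar at the group median. miR-128-3p and miR-218-5p sit lower in PANDORA-seq than in traditional-seq, the opposite arms sit higher there on this scale (for miR-128-1-5p the TMM-scaled difference has the other sign, and on library totals all are lower), and WT and 5XFAD points overlap for every arm.

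The first comparison asked whether any of these arms differed between 5XFAD and WT cortex. None did at the thresholds used, an adjusted p under 0.05 with a fold change over 2, in either protocol. In PANDORA-seq 1 of 728 arms was called, 0.137% of those tested, and 0 of the 9 member arms. The called arm was miR-1291, which is no member and fell by 1.58 on the log2 scale. At an unadjusted p under 0.05 there were 98 arms (13.5%), 1 of them a member. In traditional-seq 0.0% of 524 arms were called, with 9 (1.72%) at an unadjusted p under 0.05 and no member among them. In PANDORA-seq 4 arms were called by the likelihood ratio test of edgeR and 3 by DESeq2, and in traditional-seq 0 by either.

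The member with an unadjusted p under 0.05 was miR-128-3p in PANDORA-seq. Its log2 fold change was -0.47 (SE 0.19, edgeR quasi-likelihood test, unadjusted p = 0.0247, adjusted p = 0.339). In CPM, which carries no TMM scaling, 7 of the 8 5XFAD libraries lay under the WT median, 5 of them under the lowest WT library. How many of all arms were separated in this way was not counted. Without 5XFAD replicate 1 the log2 fold change was -0.39, so this library alone did not set its direction. In traditional-seq it was -0.21 (SE 0.37, adjusted p = 0.9997), and without WT replicate 1 it turned to 0.31. The WT and 5XFAD ranges overlapped in both protocols.

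The other guide arms showed smaller or less certain differences in PANDORA-seq. miR-218-5p had a log2 fold change of -0.50 (SE 0.33, adjusted p = 0.581, edgeR), with 7 of 8 5XFAD libraries under the WT median in CPM. That of miR-138-5p was -0.29 (SE 0.37), which became -0.10 without 5XFAD replicate 1. miR-137-3p stood at 0.06 (SE 0.52), a larger SE than the other guide arms had. It had few reads, and 0 in 5XFAD replicate 1, and the cause of the larger SE was not tested. In traditional-seq the values were -0.20 for miR-218-5p, -0.22 for miR-138-5p and -0.05 for miR-137-3p, each smaller than its SE. All 9 members had a median of -0.29 in PANDORA-seq, where the median of all 728 arms was 0.00, and of -0.20 in traditional-seq, where that of all 524 arms was 0.02. 7 of the 9 lay below 0 in PANDORA-seq, against 360 of all 728 arms, and 8 of the 9 in traditional-seq, against 243 of all 524. The 9 arms come from 7 hairpins and the same libraries, so they are not independent, and these counts were not tested. 5XFAD replicate 1 had the lowest CPM, before TMM scaling, of the PANDORA-seq libraries for 7 of the 9. Without this library the PANDORA-seq median was -0.10 and 6 lay below 0.

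Of the opposite arms, miR-128-1-5p had values of opposite sign in the protocols, a log2 fold change of -0.51 (SE 0.42) in PANDORA-seq and 0.42 (SE 0.34) in traditional-seq. miR-137-5p had the lowest value of the members in traditional-seq, -0.56 (SE 0.30, unadjusted p = 0.0800, adjusted p = 0.9997, edgeR), and stood at -0.29 in PANDORA-seq. In CPM without TMM scaling, 3 of 7 5XFAD libraries of traditional-seq lay under the lowest WT library for this arm, and WT replicate 2 was highest. miR-128-2-5p, miR-138-1-3p and miR-138-2-3p lay between -0.09 and 0.17 in PANDORA-seq and between -0.26 and -0.01 in traditional-seq. Whether the genotype difference itself differed between protocols was tested with an interaction term: 0.0% of 983 arms were called, 59 had an unadjusted p under 0.05, and no member did. The lowest adjusted p of a member arm was 0.920 (edgeR), that of miR-128-1-5p and miR-138-1-3p. Reads of the Mir218-2 hairpin outside its mature arms, also tested in this fit, had -1.50 (SE 0.84, unadjusted p = 0.0834, adjusted p = 0.920, edgeR).

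**Figure D2:**
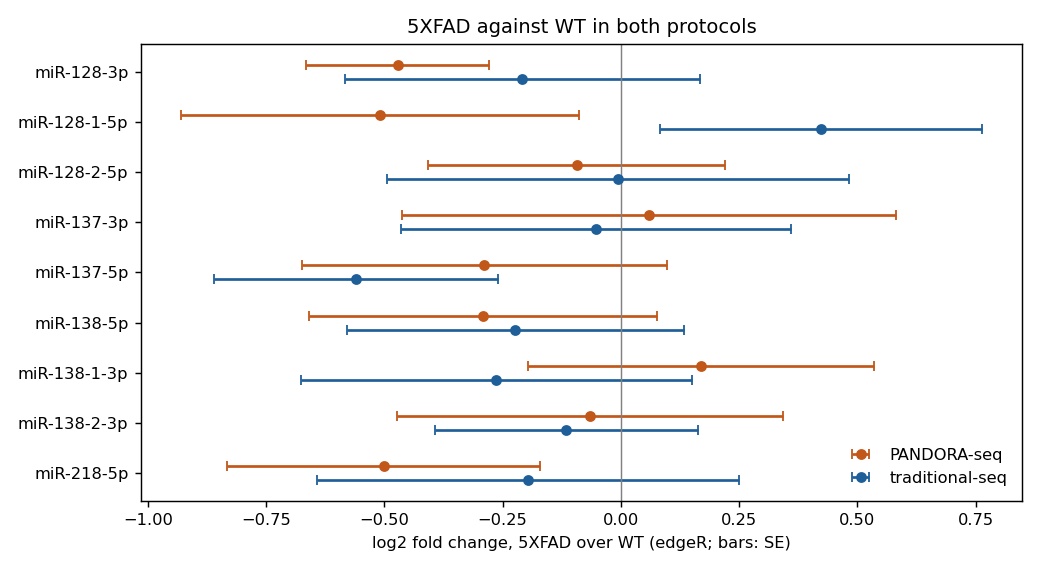
Log2 fold change of 5XFAD over WT for each of the 9 tested arms (edgeR, bars are 1 SE), in PANDORA-seq and traditional-seq. Points run from -0.51 to 0.17 in PANDORA-seq and from -0.56 to 0.42 in traditional-seq, and no arm passed the adjusted threshold in either.

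Other miRNAs known from neurons were read beside the members. 11 of the 12 arms of that list were matched by name in the table of mature sequences, and miR-124-3p was not, so it is not reported. In PANDORA-seq 0 of the 10 tested were called between genotypes, 8 lay above 0 and the median log2 fold change was 0.26. The 2 with an unadjusted p under 0.05 were miR-34a-5p, a p53-induced miRNA (0.97, SE 0.35, adjusted p = 0.306, edgeR), and miR-9-3p, a miRNA of neural progenitors and neurons (1.27, SE 0.51, adjusted p = 0.337, edgeR). In traditional-seq 0 of 11 were called and the median was 0.00. Among these, miR-132-3p, an activity-induced miRNA, had -0.42 (SE 0.29) in PANDORA-seq and -0.17 (SE 0.22) in traditional-seq.

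Markers of other cells were detected beside the neuronal ones. The 4 matched neuron markers of 5 (the miR-9 arms, miR-129-5p and miR-153-3p) summed to 51680 to 127388 CPM in PANDORA-seq and 58176 to 143799 CPM in traditional-seq. In PANDORA-seq the 2 matched oligodendrocyte markers of 3 summed to 6.73 to 30.5 CPM, the 5 microglia and leukocyte markers to 92.3 to 790 CPM and the 2 matched blood markers of 4, miR-451a and miR-144-3p, to 136 to 857 CPM. miR-126a-3p, the 1 matched vascular marker of 4, stood at 152 to 836 CPM in PANDORA-seq and at 5778 to 19375 CPM in traditional-seq. No marker was called between genotypes, and the microglia and leukocyte list, with 3 of 4 tested arms at an unadjusted p under 0.05, had a median log2 fold change of 1.20 in traditional-seq and of 0.12 (3 arms tested) in PANDORA-seq. The part of cell composition in the member values was not tested.

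The second comparison was between the protocols, and among the members it separated the guide arms from their opposite arms. All 4 guide arms were lower in PANDORA-seq than in traditional-seq after TMM scaling, although the median CPM of miR-138-5p in WT was higher there, while the opposite arms of miR-128, miR-137 and miR-138 lay above their guide arms in the same comparison. Of the 872 arms tested 80.0% were called, 53.3% higher and 26.7% lower (88.0% passed the adjusted p alone and 88.1% the unadjusted p), and the median arm had a log2 difference of 1.39, PANDORA-seq minus traditional-seq. The centre depended on the scaling, with 206 arms higher and 540 lower and a median of -2.14 on library totals, 574 and 134 with 2.72 on the totals of hairpin reads, and 184 and 154 with 0.19 when annotated mature arms alone were counted. Differences of members are therefore given also relative to the median arm. The names of the deposited files share 14 codes between the protocols, and no source used here says that a code is an animal. The tests took the 30 libraries as independent, and a fit paired by code called 446 arms higher and 229 lower and kept the direction and side of the threshold of all 9 members. Any difference in sequencing run and the enzyme treatment coincide with the protocol and cannot be told apart.

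Of the 9 members 4 were called lower, all of them guide arms, and 3 higher, all of them opposite arms. miR-218-5p had the largest difference, -4.29 (SE 0.31, adjusted p = 6.79e-15, edgeR quasi-likelihood test), and ranked 48 from the lowest of 872 arms. miR-137-3p followed with -3.61 (SE 0.37), miR-128-3p with -3.15 (SE 0.21) and miR-138-5p with -1.45 (SE 0.28). Relative to the median of all 872 arms these were -5.68, -5.01, -4.55 and -2.85, and in the fit of the 465 annotated mature arms, relative to their median, -3.84, -3.16, -2.70 and -0.97. On the totals of hairpin reads miR-138-5p stood at -0.14 and was no longer called, nor was it with mature arms alone (-0.78), and the other guide arms kept their calls at -2.94, -2.26 and -1.70 in the same order. Among the other neuronal miRNAs 6 of 11 were called lower and 1 higher, and the median was -1.07.

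Where the opposite arms lay depended on the arms they were set against. Relative to the median of all 872 arms 4 of the 5 lay between -0.62 and 0.04 and miR-128-1-5p at -1.84, while relative to the median of the mature arms alone miR-128-1-5p lay at 0.08 and the other 4 between 1.23 and 1.91. miR-128-2-5p had a log2 difference of 1.44 (SE 0.29, adjusted p = 2.65e-05, edgeR), miR-138-2-3p of 1.43 (SE 0.26), miR-138-1-3p of 1.12 (SE 0.29) and miR-137-5p of 0.77 (SE 0.27, not over 2-fold). miR-128-1-5p had -0.45 (SE 0.29, adjusted p = 0.143, edgeR), and -3.06 on library totals. All 5 were called lower on library totals, including the 3 that were called higher with TMM scaling (log2 differences from -3.06 to -1.09, highest adjusted p = 0.00123, edgeR), and all 5 were above 0 on the totals of hairpin reads, so their direction depended on the scaling. When 1 mismatch was allowed, miR-138-1-3p turned to -0.91. In WT libraries alone the 3 called opposite arms had 0.98 (miR-128-2-5p), 0.96 (miR-138-2-3p) and 0.48 (miR-138-1-3p) and were not called. Without 5XFAD PANDORA-seq replicate 6 miR-128-2-5p (0.95) and miR-138-1-3p (0.73) lost their calls, and without replicate 5 so did miR-138-1-3p (0.95). miR-137-5p was called in 5XFAD libraries alone (1.08), by DESeq2 (1.09) and with its size factors (1.09), with reads of 18 to 25 nt, with mature arms alone (1.42) and on the totals of hairpin reads (2.12).

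The ratio of the arms within a library needs no scaling, and it showed the same shift. For miR-128 the log2 ratio of 5p to 3p reads was -11.3 ± 1.13 (SD, n = 14) in traditional-seq and -7.34 ± 0.63 (SD, n = 16) in PANDORA-seq, a difference of 3.98 (permutation test, 100000 shuffles, adjusted p = 1.73e-05, from the smallest p the shuffles can give). Single libraries ran from -13.6 to -9.83 and from -8.36 to -6.07, without overlap. The 5p arms made up a median 0.0443% of miR-128 arm reads in traditional-seq and 0.536% in PANDORA-seq. For miR-138, whose guide is the 5p arm, the ratio fell from 3.95 ± 0.72 (SD, n = 14) to 1.24 ± 0.97 (SD, n = 16), a difference of -2.71 (permutation test, adjusted p = 1.73e-05), and the 3p arms made up a median of 5.90% of its arm reads in traditional-seq and 27.6% in PANDORA-seq, where single libraries reached 50.9% in WT and 59.1% in 5XFAD. The ranges of the ratio overlapped between protocols, 2.49 to 4.92 against -0.53 to 3.22. The exact-match rule left out reads with a mismatch at their last base alone. In traditional-seq these were a mean 75.5% of miR-138-1-3p, 25.3% of miR-138-2-3p and 21.3% of miR-138-5p. In PANDORA-seq they were 4.22%, 5.21% and 4.24%. The rule thus lowers the 3p share of miR-138 in traditional-seq and widens this difference. Over all 52 families with enough reads 86.5% were called, 36.5% towards 5p and 50.0% towards 3p, with a median difference of -0.54. A shift of the ratio was thus common among families and is not particular to the members. How many families moved towards their rarer arm was not counted.

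miR-137 and miR-218 had too few reads of an arm in some libraries for that test between protocols, and their protocol values are a description. In miR-137 the more frequent arm changed: 5p reads were 4.08% to 38.03% of its arm reads in all traditional-seq libraries and 73.6% to 100% in all PANDORA-seq libraries. The level of miR-137-5p in WT was a median 62.6 CPM in PANDORA-seq and that of miR-137-3p 10.1 CPM, against 11.98 and 28.5 CPM in traditional-seq. In miR-218 the 3p arms were at most 0.0100% of arm reads in traditional-seq and 0.169% in PANDORA-seq. Between genotypes 0.0% of 64 families (PANDORA-seq) and 0.0% of 84 families (traditional-seq) were called, with 7 and 0 at an unadjusted p under 0.05. miR-137 had enough reads for this test in traditional-seq. Its log2 ratio of 5p to 3p reads there was -1.74 ± 1.03 (SD, n = 7) in WT and -2.16 ± 1.16 (SD, n = 7) in 5XFAD. For miR-128 the difference of 5XFAD minus WT was 0.33 in PANDORA-seq (exact permutation test, p = 0.303, adjusted p = 0.713) and 0.10 in traditional-seq (exact permutation test, p = 0.879), and for miR-138 it was -0.42 (exact permutation test, p = 0.385) and -0.08 (exact permutation test, p = 0.844).

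**Figure D3:**
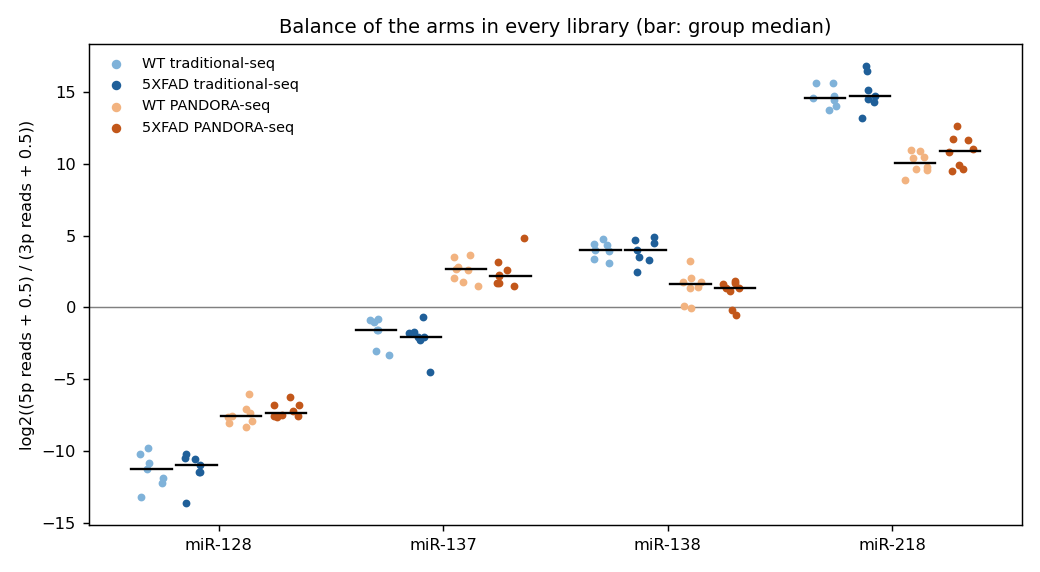
Balance of the arms of each miRNA in every library, as the log2 ratio of 5p to 3p reads with 0.5 read added to each, by genotype and protocol, with a bar at the group median. In all 4 families the PANDORA-seq medians lie nearer to the side of the opposite arm, with overlap between protocols for miR-138, and all points of miR-137 lie on the other side of 0.

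Reads of 6 of the 9 tested members had their most frequent length 1 nt lower in PANDORA-seq than in traditional-seq, while that of miR-138-1-3p moved from 23 to 20 nt and those of miR-218-5p and miR-128-1-5p from 21 to 22 nt. miR-128-3p reads averaged 21.85 ± 0.07 nt (SD, n = 14) in traditional-seq and 20.70 ± 0.05 nt (SD, n = 16) in PANDORA-seq, a difference of -1.14 nt (permutation test, adjusted p = 1.23e-05), and no library of either protocol fell in the range of the other. In traditional-seq 57.6% ± 2.25 (SD, n = 14) of its reads were 22 nt and 24.6% ± 3.92 (SD, n = 14) were 21 nt. In PANDORA-seq 48.2% ± 2.16 (SD, n = 16) were 21 nt, 36.5% ± 3.75 (SD, n = 16) were 20 nt and 11.9% ± 1.60 (SD, n = 16) were 22 nt. Adding 1 nt to every PANDORA-seq read raised the overlap of the mean length distributions from 40.0% to 87.2%.

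miR-138-5p showed the same step at each of its peaks, with the most frequent lengths at 24, 21 and 17 nt in traditional-seq and at 23, 16 and 20 nt in PANDORA-seq. Its mean fell by 0.783 nt (permutation test, adjusted p = 0.00274), and the overlap rose from 37.3% to 83.9% with the step of 1 nt. The peak of miR-137-5p moved from 20 nt (75.2% of reads) to 19 nt (64.1%), with an overlap of 25.1% before and 85.2% after the step. miR-128-2-5p was shorter by 0.509 nt (permutation test, adjusted p = 0.00170), and the main lengths of miR-137-3p moved from 21 to 20 nt, the latter over 15 libraries with few reads. Most miRNA arms were shorter: 95.4% of 151 arms were called, 88.7% shorter and 6.62% longer in PANDORA-seq, with a median difference of -0.829 nt.

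Of the guide arms tested for mean length, miR-218-5p alone did not differ detectably. Its mean length was 21.46 nt in traditional-seq and 21.51 nt in PANDORA-seq (permutation test, p = 0.488, adjusted p = 0.494), but the reads behind the means differed. In traditional-seq 74.5% ± 8.89 (SD, n = 14) were 21 nt, 11.2% were 23 nt and 9.34% were 24 nt, and in PANDORA-seq 53.6% ± 2.88 (SD, n = 16) were 22 nt, 27.3% were 20 nt, 12.4% were 23 nt and 4.26% were 21 nt. The ranges over single libraries did not overlap at 20, 21 or 22 nt. Adding 1 nt to every PANDORA-seq read raised the overlap of its mean length distributions from 19.3% to 51.2%. With 1 mismatch allowed, the difference in length, PANDORA-seq minus traditional-seq, was -0.523 nt (permutation test, adjusted p = 8.95e-05). Length did not differ detectably between genotypes: 0.0% of 187 arms in PANDORA-seq and 0.0% of 220 in traditional-seq were called, with 16 and 1 at an unadjusted p under 0.05. miR-128-2-5p was 1 of these 16, 0.448 nt longer in 5XFAD in PANDORA-seq (exact permutation test, p = 0.0384, adjusted p = 0.479).

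**Figure D4:**
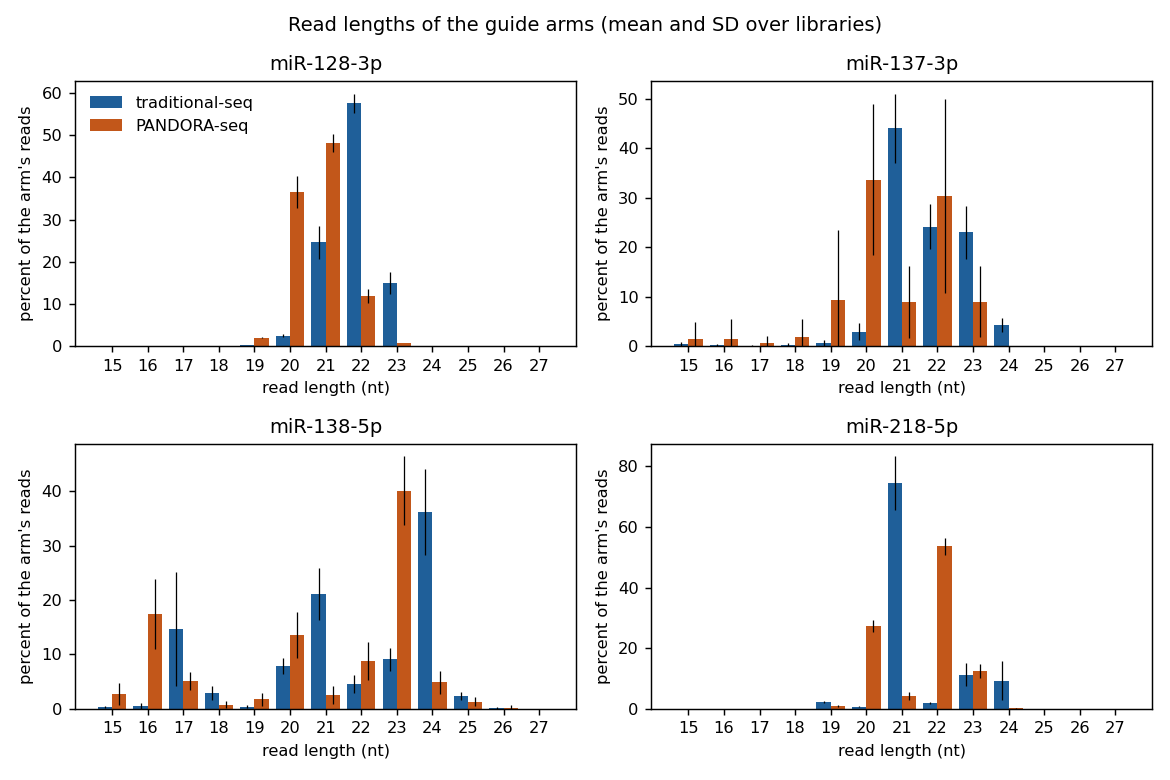
Read lengths of the 4 guide arms as percent of the arm's reads (bars are means over libraries, lines 1 SD), for 14 traditional-seq and 16 PANDORA-seq libraries (15 for miR-137-3p, which had no read in 1). The peaks of miR-128-3p and miR-138-5p sit 1 nt lower in PANDORA-seq, while miR-218-5p shifts from 21 nt to 22 and 20 nt.

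The 5′ ends, which set the seed, moved little in miR-128-3p, miR-218-5p and miR-138-5p. 99.7% ± 0.05 (SD, n = 14) of miR-128-3p reads began at the annotated base in traditional-seq and 99.3% ± 0.29 (SD, n = 16) in PANDORA-seq. The shares were 99.9% and 99.1% for miR-218-5p and 99.02% and 97.9% for miR-138-5p. These differences of 0.368, 0.786 and 1.09 percentage points passed the test (permutation test, highest adjusted p = 0.00738), as did 74.8% of 151 arms, most of them, 58.9%, lower in PANDORA-seq. The reads of miR-137-3p had a spread of 5′ ends, and in traditional-seq 65.9% began at the annotated base, 16.7% at the next and 15.5% at the one after, so the others carry shifted seeds. In miR-138-1-3p a start 2 bases downstream took 33.0% of reads in traditional-seq and 40.9% in PANDORA-seq. Between genotypes 0.0% of 187 arms (13 at an unadjusted p under 0.05) and 0.0% of 220 arms (7) were called.

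The 3′ ends also tell the hairpins apart, which share a guide arm but differ just past it. Some of the reads of the guide arms that began at the annotated base and carry this information are listed, with the bases past the RefSeq mature end in capitals. Among those not listed are the read of 24 nt of Mir218-2 (68283 reads over all libraries) and that of 25 nt of Mir138-1 (467 reads). For miR-128-3p the read of 21 nt fits both hairpins, and the first bases past it mark Mir128-1 or Mir128-2.
miR-128-3p, both: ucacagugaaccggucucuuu
miR-128-3p, Mir128-1: ucacagugaaccggucucuuuU
miR-128-3p, Mir128-1: ucacagugaaccggucucuuuUU
miR-128-3p, Mir128-2: ucacagugaaccggucucuuuC
For miR-138-5p the read of 24 nt separates the hairpins, and for miR-218-5p the read of 23 nt.
miR-138-5p, Mir138-1: agcugguguugugaaucaggccgU
miR-138-5p, Mir138-2: agcugguguugugaaucaggccgA
miR-218-5p, both: uugugcuugaucuaaccauguG
miR-218-5p, Mir218-1: uugugcuugaucuaaccauguGC
miR-218-5p, Mir218-2: uugugcuugaucuaaccauguGG
A base added after processing cannot be told apart from the same base in a hairpin, which holds for the U of Mir128-1 and Mir138-1, the C of Mir128-2, the A of Mir138-2 and the G or C of the miR-218 hairpins.

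In traditional-seq 54.7% ± 3.56 (SD, n = 14) of miR-128-3p reads fitted Mir128-1 alone, 17.95% ± 4.14 (SD, n = 14) Mir128-2 alone and 27.3% ± 4.10 (SD, n = 14) both. In PANDORA-seq the shares were 11% ± 1.35, 1.66% ± 0.34 and 87.3% ± 1.66 (SD, n = 16), so most reads there were too short to assign. The ratio of reads of Mir128-1 to reads of Mir128-2 among those of 22 nt was 1.45 to 4.03 in traditional-seq and 4.97 to 6.91 in PANDORA-seq. The 5p arms, which differ in sequence, gave other ratios: miR-128-1-5p had 0.980 ± 0.50 (SD, n = 14) reads for each read of miR-128-2-5p in traditional-seq, with single libraries from 0.248 to 1.91, and 0.236 ± 0.13 (SD, n = 16) in PANDORA-seq, where all lay from 0.0217 to 0.503. No test was made on these ratios.

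For miR-138-5p, 36.4% ± 7.55 (SD, n = 14) of reads fitted Mir138-1 alone in traditional-seq and 2.51% ± 0.93 (SD, n = 14) Mir138-2 alone. In PANDORA-seq these were 6.03% and 1.31%. Exact reads of the 3p arms ran the other way. There were 0.311 ± 0.12 (SD, n = 14) of miR-138-1-3p for each of miR-138-2-3p in traditional-seq and 0.301 ± 0.16 (SD, n = 16) in PANDORA-seq. Reads with a mismatch at their last base alone are left out of this ratio. Such reads were a mean 75.5% of miR-138-1-3p and 25.3% of miR-138-2-3p in traditional-seq, and 4.22% and 5.21% in PANDORA-seq. The exact-match rule thus lowers the traditional-seq ratio, and a ratio with these reads was not computed. For miR-218-5p, Mir218-2 took 19.8% ± 9.02 (SD, n = 14) of reads in traditional-seq and 12.9% ± 2.46 (SD, n = 16) in PANDORA-seq, and Mir218-1 0.804% and 0.0371%. Where reads of miR-218-5p could be assigned, Mir218-2 was ahead in every mean, and the 3p arms had 56 reads of miR-218-2-3p and 5 of miR-218-1-3p over all PANDORA-seq libraries, and 19 and 14 over all traditional-seq libraries.

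**Figure D5:**
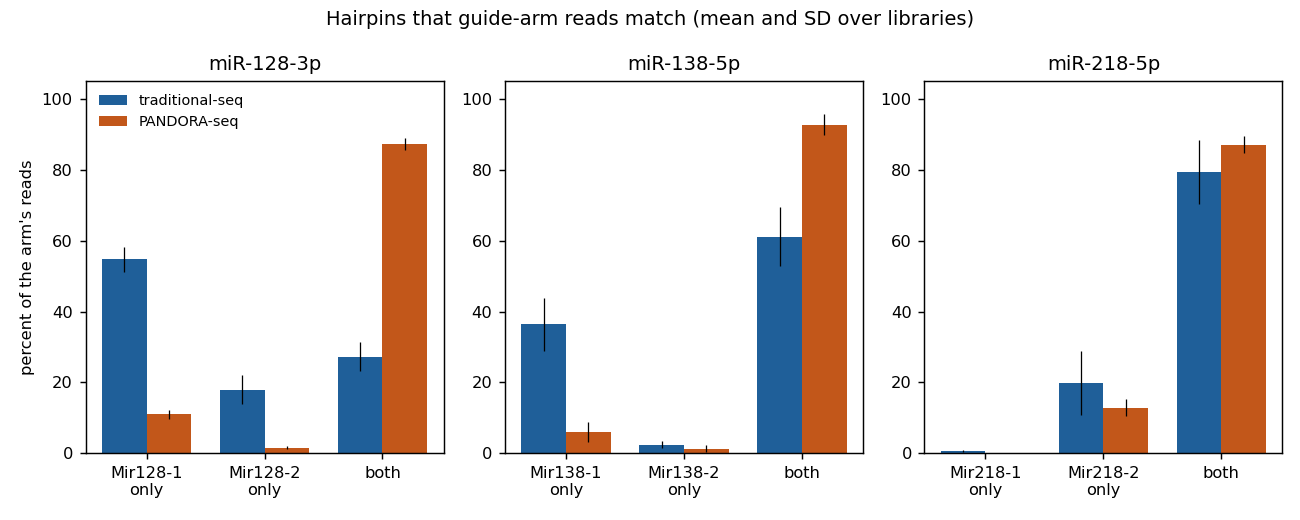
Share of guide-arm reads that fitted only the first hairpin, only the second or both, for miR-128-3p, miR-138-5p and miR-218-5p (bars are means over libraries, lines 1 SD; 14 traditional-seq and 16 PANDORA-seq libraries). For miR-128-3p the share that fitted both rose from 27.3% in traditional-seq to 87.3% in PANDORA-seq.

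Reads that differed from the hairpin at their last base alone were counted apart, and they were much rarer in PANDORA-seq. An A at that place took 16.01% ± 1.62 (SD, n = 14) of miR-128-3p reads in traditional-seq and 4.05% ± 1.08 (SD, n = 16) in PANDORA-seq, as a share of the exact reads and these together. For miR-218-5p it took 24.7% ± 10.8 (SD, n = 14), from 8.78% to 42.0% in single libraries, and 3.52% ± 0.85 (SD, n = 16). For miR-138-5p a U was the most frequent such base, at 9.44% ± 3.93 (SD, n = 14) in traditional-seq. miR-138-1-3p stood out with 59.1% ± 12.7 (SD, n = 14) of its traditional-seq reads ending in a U that the hairpin does not have. These reads do not enter the counts above, where a match had to be exact. No test was made on them.

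Arms whose level ran most like that of a guide arm were ranked by the lower of the Pearson correlations over the 16 PANDORA-seq and the 14 traditional-seq libraries, among 427 arms. The libraries share depth and scaling, so these are descriptions. For miR-128-3p the nearest were miR-132-5p (r = 0.89 and 0.62), miR-301a-5p (0.62 and 0.77) and miR-370-3p (0.64 and 0.61). miR-137-3p and miR-138-5p were in each other's first 3 (r = 0.92 in PANDORA-seq and 0.86 in traditional-seq, and 0.78 in PANDORA-seq without 5XFAD replicate 1), and the others of both were miR-380-3p and miR-300-3p. For miR-218-5p they were miR-434-5p, miR-376b-5p and miR-381-3p (r from 0.81 to 0.93). miR-128-3p itself ran with miR-138-5p at 0.43 and -0.13 and with miR-137-3p at 0.37 and -0.05, and the PANDORA-seq values without 5XFAD replicate 1 were 0.053 and -0.14.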

How the data were processed

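Small RNA was measured in 30 cortex libraries. The deposited files hold, per the file headers, each distinct read sequence with its raw count after adapter removal. The authors analysed the reads with SPORTS1.1, whose annotation was not used here. Reads of 15 to 45 nt were present. The hairpins came from GENCODE vM21 and the mature arms from RefSeq (GRCm38.p6), while the submitters' processing notes name the mm39 build, so no coordinate was taken from the files. Counts of whole-sequence, sense, exact matches were summed per arm, and a read that fitted several hairpins counted once for their shared arm.

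Arms passing filterByExpr (smallest count 10, smallest total 15) were tested with edgeR 4.0.16 (R 4.3.3), TMM scaling over hairpin reads and the quasi-likelihood test, with Benjamini-Hochberg adjustment over all arms. Arms changed over 2-fold with an adjusted p under 0.05 were called. Genotypes were compared within each protocol, protocols over all libraries with genotype as covariate, and the difference of differences by an interaction term. Arm ratios (0.5 read added, at least 10 reads of each arm in every library), mean lengths and 5′ ends (at least 50 reads in every library) were tested by exact permutation between genotypes (12870 splits of 8 against 8, 3432 of 7 against 7) and by 100000 shuffles between protocols, two-sided and adjusted over all families or arms. The smallest p of the shuffles was 1e-05.

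On simulated counts with 200 arms changed 4-fold, the genotype test called 175 of them in PANDORA-seq (728 arms) and 175 in traditional-seq (524 arms), with 3 and 2 unchanged arms called, and the protocol test called 171 (872 arms) with 2. A 4-fold change is larger than any genotype difference of a member arm. These rates therefore do not give the power for differences of the members' size. Alternatives were DESeq2 1.42.0, its size factors, the likelihood ratio test of edgeR, library totals, no filter, reads of 18 to 25 nt, 1 mismatch, leaving out each replicate and a replicate block. The totals of hairpin reads and mature arms alone were added after the data were seen. Arms named are all members, the 12 other neuronal miRNAs, the cell type markers, arms that share a guide arm's seed, and the 3 arms most alike in level to each guide arm. miR-1291 and let-7c-5p were named after their values were seen. The members and lists were chosen with earlier results of these data known.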

Additional observations from a re-analysis of the deposited data

Results flagged for a closer look

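In 44 groups of 7 or 8 libraries the highest and lowest library was set against the others by Dixon's criterion, and 8 single values stood apart. The criterion's rate of about 1 in 20 groups holds for independent, normally distributed values. Most values here were CPM without TMM scaling, and the arms share libraries, so no chance rate is given.

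In traditional-seq WT replicate 1 had 526219 CPM of miR-128-3p, against 142174 to 254526 CPM in the other WT libraries. WT replicate 2 had 28.9 CPM of miR-137-5p, against 8.54 to 16.2 CPM, and 708 CPM of miR-138-5p, against 125 to 342 CPM. 5XFAD replicate 2 had 31744 CPM of miR-218-5p, against 5000 to 15929 CPM, and a log2 ratio of miR-128 5p to 3p of -13.6, against -11.5 to -10.2. 5XFAD replicate 3 had 0.487 CPM of miR-138-1-3p, against 2.69 to 3.98 CPM.

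In PANDORA-seq 5XFAD replicate 5 was high in both opposite arms of miR-138, with 63.4 CPM of miR-138-1-3p against 7.43 to 21.5 CPM in the other 5XFAD libraries, and 203.1 CPM of miR-138-2-3p against 16.4 to 92.6 CPM.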

How the results depend on the processing

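Of the single results, leaving out replicates aside, 393 kept direction and side of the threshold, 7 became stronger, 5 weaker and 30 reversed. The cause was not tested. The genotype count in PANDORA-seq, 1 of 728 arms, was 4 by the likelihood ratio test, 3 by DESeq2, 0 on library totals, 0 with reads of 18 to 25 nt and 0 with the replicate block. It was 47 of 3918 arms without the filter, and ran from 1 to 2 when a replicate was left out. The traditional-seq count, 0 of 524 arms, was 5 of 2294 without the filter. The protocol count, 698 of 872 arms, was 2126 of 4175 without the filter and 338 of 465 for mature arms alone (681 to 728 with a replicate left out). The interaction count, 0 of 983 arms, was 1 by the likelihood ratio test, 2 by DESeq2 and 3 of 4175 without the filter. miR-128-3p between genotypes in PANDORA-seq ranged over alternatives from -0.60 to -0.37, with adjusted p from 0.191 to 0.853 (edgeR and DESeq2).

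Values near 0 changed sign. Between genotypes in PANDORA-seq, library totals gave 0.0058 (miR-128-2-5p) and 0.047 (miR-138-2-3p), and miR-137-3p had -0.010 on the totals of hairpin reads and -0.0082 with mature arms alone. With the replicate block miR-137-3p had -0.064 in PANDORA-seq, and miR-128-3p 0.056 and miR-128-2-5p 0.072 in traditional-seq. Whether equal replicate numbers pair the samples is not said by the labels. The correlation of same-numbered libraries ran from -0.508 to 0.435 in PANDORA-seq and from -0.414 to 0.418 in traditional-seq, which cannot decide it. miR-128-2-5p had 0.011 in traditional-seq with mature arms alone. Interactions turned to 0.058 for miR-128-2-5p on library totals, and for miR-138-5p to -0.0905 by DESeq2, -0.0910 with size factors and -0.051 with mature arms alone.

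Between protocols, library totals gave -3.06 (miR-128-1-5p), -1.18 (miR-128-2-5p), -1.80 (miR-137-5p), -1.47 (miR-138-1-3p) and -1.09 (miR-138-2-3p), all 5 called lower. miR-128-1-5p had 0.97 on the totals of hairpin reads and 0.27 with mature arms alone, and miR-138-1-3p had -0.91 with 1 mismatch. The length of miR-218-5p differed by -0.523 nt with 1 mismatch.

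Genotype differences in length with reads of 18 to 25 nt were 0.00369 nt (miR-128-3p) and 0.0117 nt (miR-218-5p) in PANDORA-seq, and 0.0165 nt (miR-128-1-5p) and 0.0331 nt (miR-137-3p) in traditional-seq. With 1 mismatch they were -0.0212 nt (miR-138-5p, PANDORA-seq), 0.0139 nt (miR-128-1-5p) and 0.00836 nt (miR-137-3p). The 5′ share in traditional-seq differed by -0.435 points (miR-128-1-5p, 18 to 25 nt), 0.930 (miR-128-2-5p, 1 mismatch) and -0.00426 (miR-128-3p, 1 mismatch).

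With a replicate left out, genotype values ran in PANDORA-seq from -0.30 to 0.21 (miR-128-2-5p), -0.16 to 0.30 (miR-137-3p), -0.15 to 0.29 (miR-138-1-3p) and -0.31 to 0.058 (miR-138-2-3p), and in traditional-seq from -0.22 to 0.36 (miR-128-2-5p), -0.41 to 0.31 (miR-128-3p), -0.45 to 0.14 (miR-137-3p) and -0.63 to 0.049 (miR-218-5p). The interaction of miR-218-5p was 0.045 without 5XFAD PANDORA-seq replicate 1. Few reads of miR-137-3p and of most opposite arms limit what these depths can show.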
